A study of Mus musculus with 9 samples.

Results

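Wild-type (WT) natural killer (NK) cells grown in interleukin 2 (IL-2) were profiled on 3 of the 9 arrays of this series, and every array labelled WT was taken. The cells came from spleens of female C57BL/6N mice, were enriched on DX5 magnetic beads from a pool of 3 to 4 mice per experiment, and were kept in culture with human recombinant IL-2 (5000 U/ml) over 7 days, with splitting on days 4 and 6. DX5 recognises CD49b, an integrin chain that is not restricted to NK cells. Each of 3 independent experiments gave 1 WT array, and replicate numbers below are those of the experiments. The other 6 arrays held cells of Tyk2-/- mice and of mice with the Tyk2K923E allele, grown the same way, and they are used below only to compare the experiments. No untreated or freshly isolated cells are described, so the values say what these cultures expressed and not what IL-2 did to them. Because animals were pooled, the spread over the 3 arrays is a spread between cultures and not between mice.

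NK cells are innate lymphocytes that kill infected or transformed cells by releasing perforin and granzymes from secretory granules, under the control of paired activating and inhibitory surface receptors. Many of these receptors are C-type lectin-like proteins of a gene cluster called the NK gene complex. IL-2 acts on NK cells through the receptor chains encoded by Il2rb and Il2rg, the kinases JAK1 and JAK3 and the transcription factor STAT5, and high doses drive proliferation and granule synthesis.

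A gene was represented by its brightest probe set among those that carried its symbol alone, which gave 22180 genes, and its level was the mean log2 value of the 3 WT arrays. Its percentile states the share of all 41345 probe sets with a lower mean. The 50th percentile lay at 5.44 log2 units, the 75th at 7.29, the 90th at 9.13 and the 99th at 11.84. Probe sets bind their targets with different efficiency, so a percentile places the signal of a probe set and not the number of transcripts, and an order between neighbouring genes was not tested. The medians of the 3 arrays were 5.44, 5.45 and 5.44.

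The level of genes that lymphocytes are not expected to transcribe was read from 1388 odorant, vomeronasal and trace amine receptor genes, called chemosensory genes below. Their medians on the 3 arrays were 3.24, 3.18 and 3.24, and their 95th percentiles were 5.42, 5.33 and 5.44. A gene above that percentile on every WT array was counted as above the reference level, which held for 11971 genes (54.0%). A stricter reference, the 99th percentile of the chemosensory genes, was passed by 8653 genes (39.0%), and 2657 genes (12.0%) lay in the top 10% of probe sets.

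Checks on both sides showed the limits of this reference. Of 66 cytosolic ribosomal protein genes, 58 were above the reference level. The other 8 included Rps16, Rps15 and Rpl27a, which every growing cell needs, so a reading below the reference does not show that a gene was silent. Among 32 genes of unrelated organs, such as the liver gene Alb at 4.03 and the insulin gene Ins2 at 3.82, 10 exceeded the reference and 2, Acta1 and Mbp, exceeded the stricter one. The median percentile of the organ genes was 44.8, against 10.8 for the chemosensory genes. With the 95th percentile of the organ genes as the reference, a setting chosen after the data were seen, 8328 genes were above it. The vomeronasal receptor gene Vmn1r233 stood apart from its class, at 12.89, 12.89 and 12.85, and what its probe set hybridises to was not tested.

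**Figure D1:**
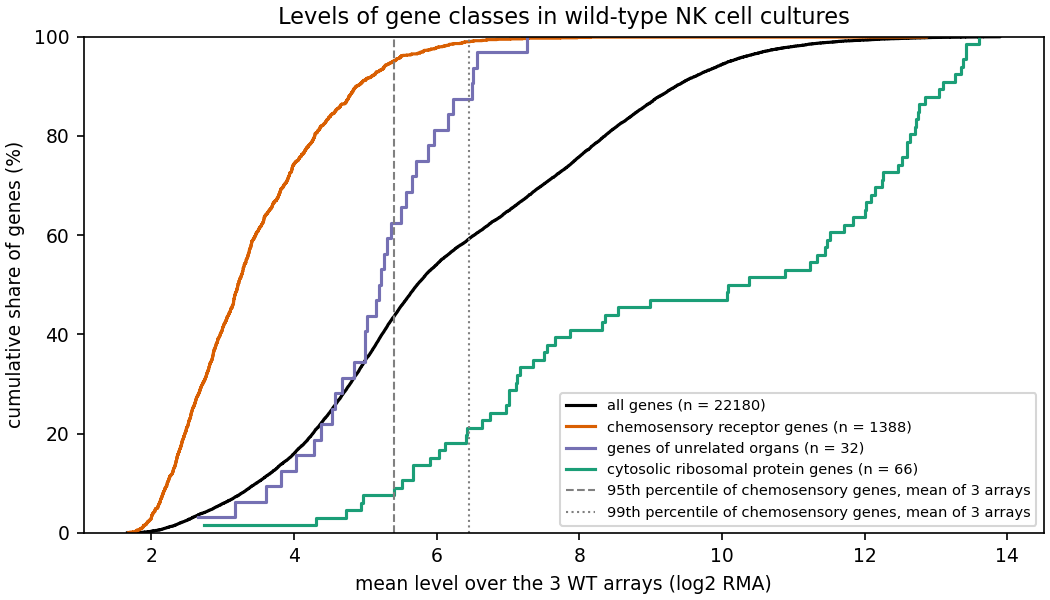
Cumulative share of genes (percent, vertical axis) against the mean level over the 3 WT arrays (log2 RMA, horizontal axis) for all 22180 genes, 1388 chemosensory genes, 32 genes of unrelated organs and 66 ribosomal protein genes. The organ genes lie to the right of most chemosensory genes and reach 7.26, and dashed and dotted lines mark the 95th and 99th percentiles of the chemosensory genes.

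All 6 markers used to check the NK label were above the stricter reference, and 5 of them were in the top 10% of probe sets. The T cell genes Cd3g and Cd3e, at 11.50 and 11.35, were bright too, and the part of T cells in the marker levels was not tested. Gzmb, which encodes the death-inducing protease granzyme B, read 13.23, 13.41 and 13.39 on the 3 arrays (mean 13.34 ± 0.10, SD, n = 3), at percentile 99.8. Prf1, the pore-forming perforin that lets granzymes into a target cell, read 12.87, 12.96 and 12.98, at percentile 99.7. Ncr1, the activating receptor NKp46, read 11.17, 11.65 and 11.45, at percentile 98.5. These 3 markers were high on every array, with little spread for the granule genes.

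Eomes, a T-box factor of mature conventional NK cells, read 10.78, 11.06 and 11.12 (percentile 97.8). Klrb1c, which encodes the NK1.1 antigen, read 10.03, 9.51 and 9.51 (percentile 93.2), and a probe set shared by Klrb1a and Klrb1c read 7.89 ± 0.14. Tbx21, which encodes the related factor T-bet, was the dimmest of the markers, at 8.50, 8.61 and 8.53 (percentile 85.9). Over the 6 markers the median percentile was 98.1, with an SD of 0.342 over the arrays, against a median of 55.8 over all 22180 genes. The female label was met by Xist, the RNA that silences an X chromosome, at 11.19 ± 0.17. The Y-linked genes Kdm5d, Uty, Eif2s3y and Usp9y were between 3.22 and 3.82, although Sry read 5.82.

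The 25 brightest genes outside the ribosomal, histone, small RNA and mitochondrial classes combined granule genes with genes of protein synthesis and glycolysis. They opened with B2m, the light chain of MHC class I, at 13.69 ± 0.07, followed by the translation factors Eif4a1 and Eef1a1 and the glycolytic enzyme Gapdh. Gzmd, Gzmb, Gzmg, Gzma and Prf1 were all among the 25, as were Fcer1g, a signalling adaptor of Fc and natural cytotoxicity receptors, and Tnfrsf9, the activation-induced receptor 4-1BB, which stood at 12.89 ± 0.17. Id2, a helix-loop-helix protein needed for innate lymphoid development, was at 12.94 ± 0.10. Metabolic and structural members included Pkm, Pgk1, Cox6a1, Tubb5, Vim and Ero1a, the oxidase that drives disulfide formation in the endoplasmic reticulum.

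Of all genes, 171 (0.771%) lay in the top 1% of probe sets. They comprised 24 of the 66 ribosomal protein genes, 9 of the 10 mitochondrially encoded genes, 10 small RNA genes, 2 histone genes and 126 others. By RefSeq biotype, 2551 of 18964 protein-coding genes (13.5%) were in the top 10%, against 16 of 1926 long noncoding RNA genes and 32 of 80 small nucleolar RNA genes (40%).

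**Figure D2:**
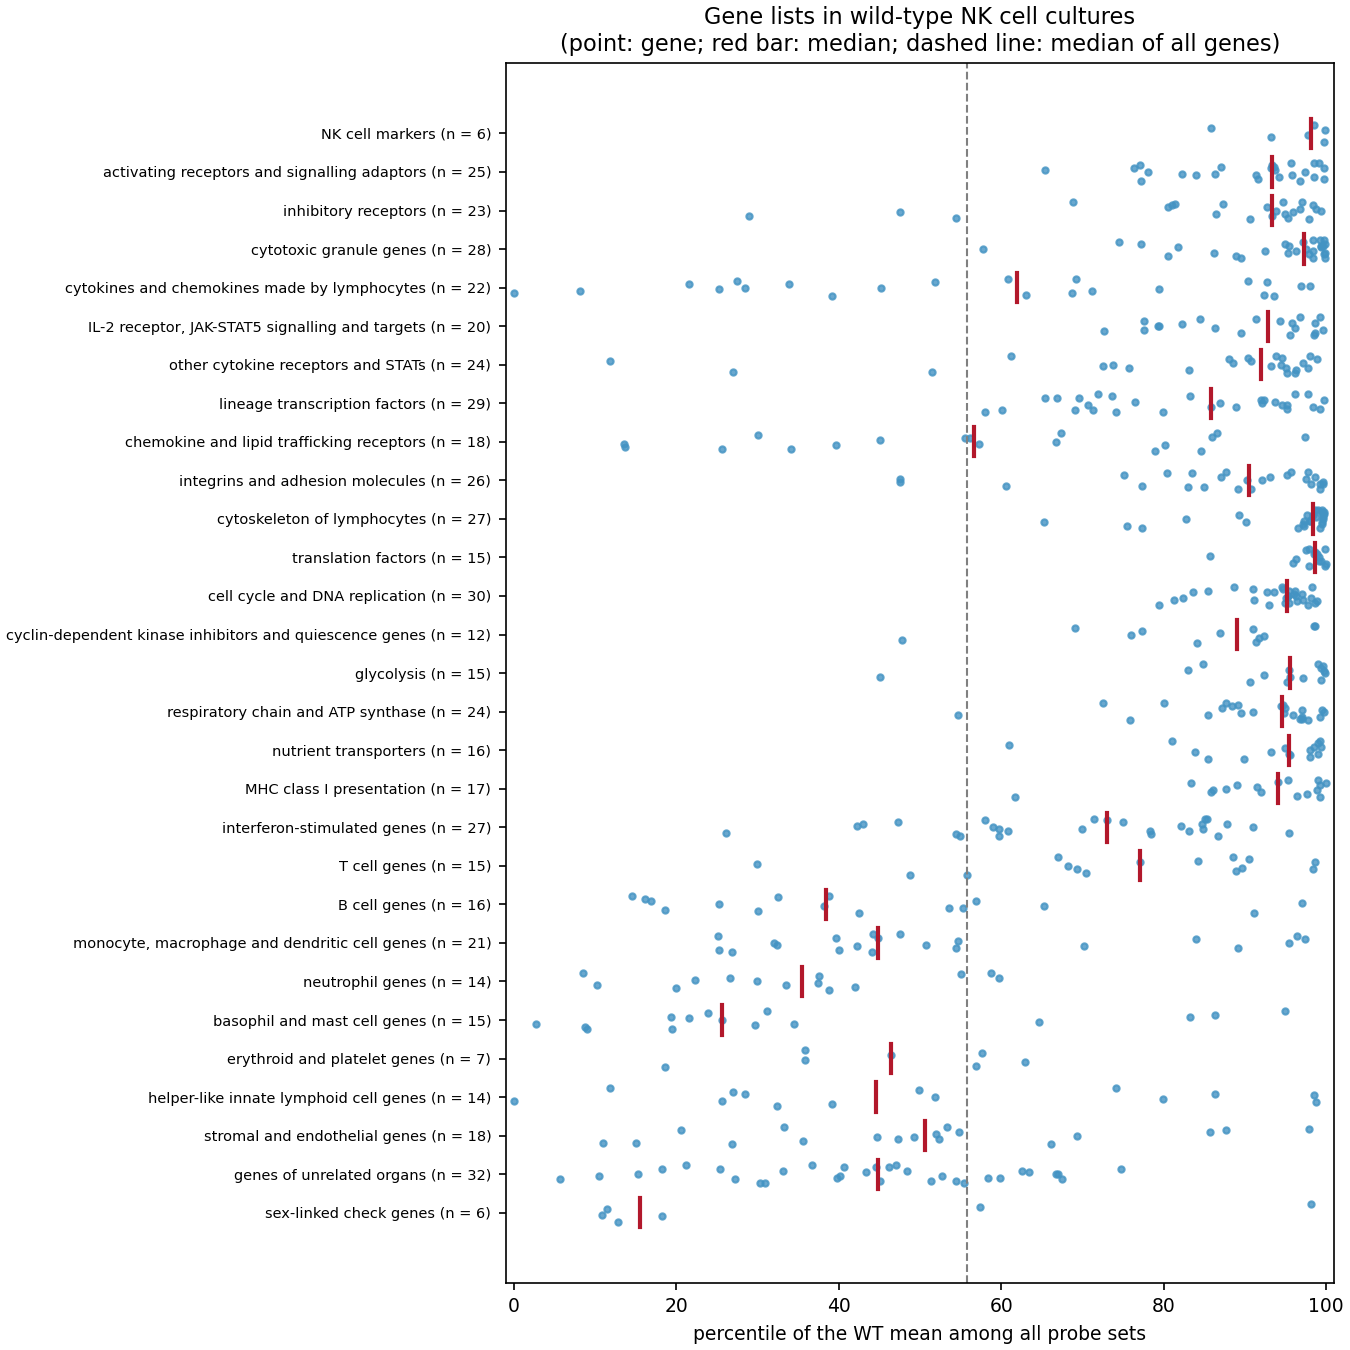
Percentile of the WT mean among all probe sets (horizontal axis) for the measured members of each gene list (points), with the list's median (red bar) and the median of all 22180 genes (dashed line, 55.8). Granule, cytoskeleton, translation and cell cycle genes crowd the right edge, and the B cell, myeloid, neutrophil and basophil lists lie mostly on the left with a few members at the right, unlike the T cell list with its median of 77.1.

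Promoter sequence was set beside level, to show what the genes of the killing machinery and the genes of growth have upstream of their starts. RefSeq promoters of the GRCm38.p6 assembly, 250 bases before to 50 bases after the start of each gene, matched 15359 of the 18964 coding genes. A gene with several promoters was given the mean of their CG counts, and it held a motif if any of them did. The 250 upstream bases of 6 genes follow, each 5′ to 3′ on the gene's own strand with every CG dinucleotide (CpG) in capitals. The first 4 belong to serine protease and perforin genes of granules, of which Mcpt4, a mast cell protease gene, is the one not above the reference level here. The last 2 belong to a translation factor gene and a replication gene that were also in the top 10% of probe sets, at 13.59 and 11.70. Positions on GRCm38.p6 are chr14:56262335-56262584 (minus strand) for Gzmb, chr14:56132594-56132843 (minus) for Gzmd, chr14:56062311-56062560 (minus) for Mcpt4, chr10:61297586-61297835 (plus) for Prf1, chr9:78481725-78481974 (minus) for Eef1a1 and chr2:132253181-132253430 (minus) for Pcna.
Gzmb: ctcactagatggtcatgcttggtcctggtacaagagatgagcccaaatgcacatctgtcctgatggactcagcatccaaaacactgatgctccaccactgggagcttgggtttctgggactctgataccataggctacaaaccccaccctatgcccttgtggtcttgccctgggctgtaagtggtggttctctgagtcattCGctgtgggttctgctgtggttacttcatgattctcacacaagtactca
Gzmd: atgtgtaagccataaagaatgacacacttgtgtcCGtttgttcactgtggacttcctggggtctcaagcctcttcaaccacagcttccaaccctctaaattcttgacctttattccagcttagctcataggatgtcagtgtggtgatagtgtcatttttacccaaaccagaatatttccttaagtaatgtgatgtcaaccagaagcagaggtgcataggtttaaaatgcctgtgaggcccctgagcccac
Mcpt4: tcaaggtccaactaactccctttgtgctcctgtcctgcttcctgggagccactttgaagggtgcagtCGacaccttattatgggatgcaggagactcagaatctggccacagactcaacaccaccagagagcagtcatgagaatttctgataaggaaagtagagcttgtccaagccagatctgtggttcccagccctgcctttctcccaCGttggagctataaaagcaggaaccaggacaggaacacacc
Prf1: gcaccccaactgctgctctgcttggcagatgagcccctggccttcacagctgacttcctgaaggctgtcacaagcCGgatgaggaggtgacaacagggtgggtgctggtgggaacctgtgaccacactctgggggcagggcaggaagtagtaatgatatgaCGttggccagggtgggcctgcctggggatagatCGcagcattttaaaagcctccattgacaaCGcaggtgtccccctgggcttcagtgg
Eef1a1: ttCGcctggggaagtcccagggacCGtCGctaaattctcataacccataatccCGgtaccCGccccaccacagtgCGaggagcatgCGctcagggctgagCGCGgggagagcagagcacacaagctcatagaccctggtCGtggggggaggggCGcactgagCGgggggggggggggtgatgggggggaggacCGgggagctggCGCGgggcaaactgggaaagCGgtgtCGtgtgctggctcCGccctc
Pcna: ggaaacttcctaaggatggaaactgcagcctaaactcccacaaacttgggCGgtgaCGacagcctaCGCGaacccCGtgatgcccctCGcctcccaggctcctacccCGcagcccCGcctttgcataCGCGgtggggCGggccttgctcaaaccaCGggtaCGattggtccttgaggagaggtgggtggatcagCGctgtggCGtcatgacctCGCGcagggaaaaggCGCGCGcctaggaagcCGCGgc

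The upstream stretch of Gzmb held 1 CpG, that of Gzmd 1, that of Mcpt4 2 and that of Prf1 4, whereas Eef1a1 held 18 and Pcna, the sliding clamp of DNA polymerase, held 22. Over the 300-base promoters the median number of CpG dinucleotides was 23 for coding genes in the top 10%, 22 from the 75th to the 90th percentile, 17 from the 50th to the 75th, 8 from the 25th to the 50th and 3 below the 25th, the chemosensory genes left out. The chemosensory genes had a median of 1, and all matched coding genes 15. Brighter classes thus had more CpG in these data, with a Spearman correlation across coding genes of 0.59 (0.51 without the chemosensory genes), which is a description over genes that are not independent. The part of probe base composition in it was not tested.

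Granule and receptor genes were bright with few CpG. The 26 granule genes with a promoter had a median of 5 CpG, and so did the 19 of them in the top 10%. Activating receptors and adaptors had a median of 4.5 (n = 20) and the inhibitory receptor list of 4 (n = 17). Few CpG was not particular to these bright lists. Among dimmer lists, neutrophil genes had a median of 3 (n = 13) and basophil and mast cell genes of 3 (n = 13). Genes of unrelated organs had 3.5 (n = 25) and B cell genes 7 (n = 11). The cell cycle list had 24 (n = 25), the list of IL-2 receptor, JAK and STAT5 genes 23.25 (n = 16), the transcription factors 21 (n = 23) and glycolysis 21.25 (n = 14). The letters TATAAA were searched on both strands of the 250 upstream bases. Of the 15359 coding genes, 2038 (13.3%) held them in at least 1 promoter. Counted by promoter and not by gene, the share was 12.4% of all 32851 listed promoters. By gene, the letters occurred in 8 of 19 members of the cytokine list (42.1%) and in 5 of 17 of the inhibitory receptor list. They also occurred in 449 of 1189 chemosensory genes (37.8%), whose promoters were low in GC content. In the sequences printed, only Mcpt4 held these letters, starting 32 bases before the gene's start.

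**Figure D3:**
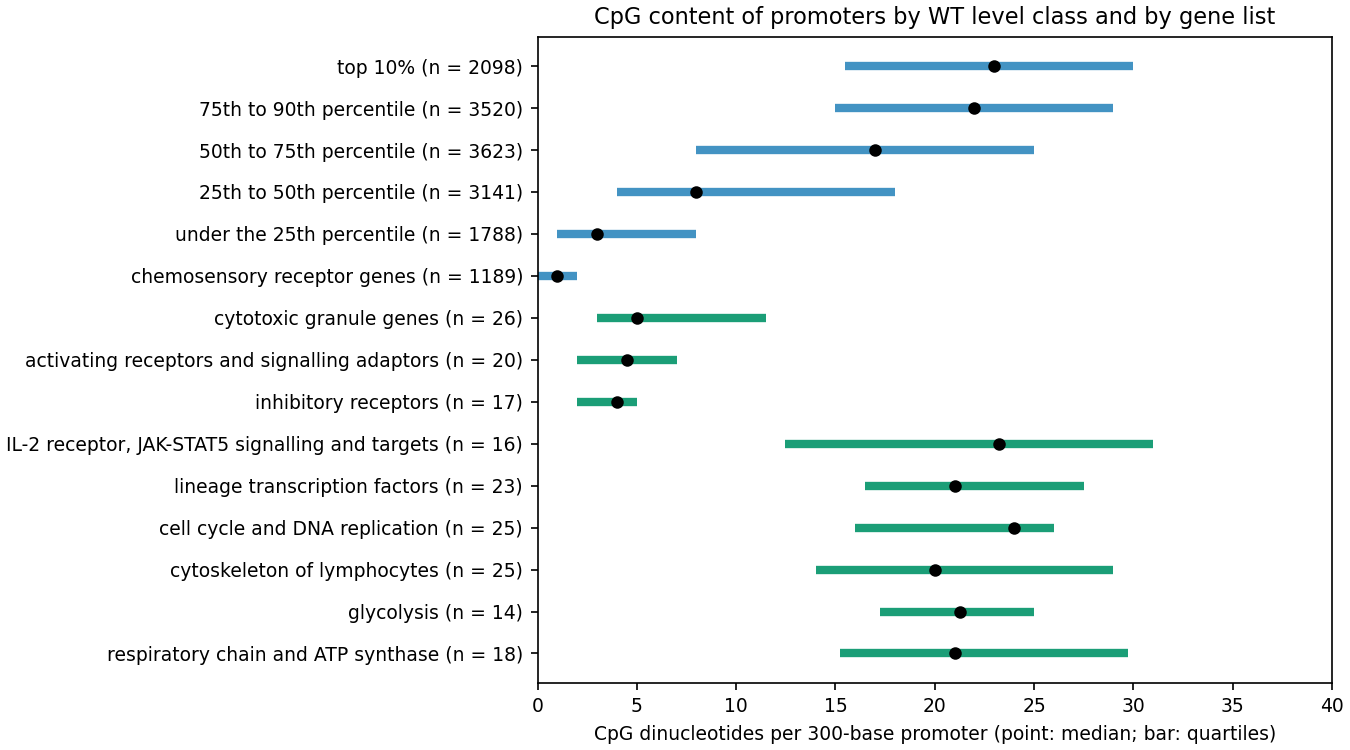
Number of CpG dinucleotides per 300-base promoter (horizontal axis), as the median (point) and quartiles (bar), for coding genes by class of WT level (blue) and for 9 gene lists (green). The 3 lists of granule genes and receptors have medians of 4 to 5, whereas the genes of the top 10% have a median of 23.

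Most granule genes were bright. All 28 measured members were above the reference level, 27 were above the stricter one, 20 were in the top 10%, and their median percentile was 97.3. Among the granzymes, Gzmd read 13.42, 13.43 and 13.42, and Gzmg 13.39, 13.22 and 13.15. Gzma, a granzyme with trypsin-like activity, read 12.88, 12.99 and 12.83, and Gzmc 12.87, 12.87 and 12.79. These members and Gzmb lay above percentile 99.6 on the mean.

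Gzmf was lower and less even, at 11.87, 10.92 and 11.20. Gzmk, another granzyme with trypsin-like activity, read 8.51, 8.06 and 7.20, and Gzmn read 7.85, 6.98 and 6.87. Gzmm, a granzyme of innate lymphocytes, was the lowest, at 5.82, 5.82 and 5.87, above the reference but under the stricter one. A probe set shared by Gzme and Gzmd read 12.74 ± 0.05. Granzymes of this family are close in sequence, so cross-hybridisation between their probe sets was not tested.

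The other granule genes included Srgn, the proteoglycan that packs granzymes, at 12.35 ± 0.03, Nkg7, a membrane protein of the granule, at 12.07 ± 0.13, and the cathepsins Ctsd and Ctsw at 12.32 and 11.33. Ctsc, which activates granzyme precursors, was at 10.14 ± 0.05, and Cst7, an inhibitor of that step, at 10.42 ± 0.07. Serpinb9, Serpinb9b and Serpinb6b, inhibitors of granzyme-like proteases in the cytosol, were at 10.89, 10.72 and 11.09. Release factors spanned a wider range, from Rab27a at 11.32 ± 0.18 and Stxbp2 at 10.18 ± 0.21 to Stx11 at 8.60 ± 0.11 and Unc13d at 8.05 ± 0.07. The death ligand genes Fasl and Tnfsf10 were at 9.54 and 7.54.

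In the chromosome 14 cluster, genes far above the reference lay beside genes below it. RefSeq places 26 genes from Cma1 to Gzmb, of which 15 code for protein and 14 were measured with a symbol of their own. In chromosomal order, the mast cell protease genes Mcpt1, Mcpt2, Mcpt9 and Mcpt4 were at 3.91, 3.02, 3.56 and 2.29, all 4 below the reference. The next coding genes measured, Mcpt8 and Ctsg, were at 10.06 ± 0.21 and 9.38 ± 0.45, followed by the granzyme genes Gzmd, Gzmg, Gzmn, Gzmf, Gzmc and Gzmb. Cma1, at the far end, read 8.41, 8.75 and 7.52, and Cma2 read 5.47 on the mean. In all, 9 of the 14 were above the stricter reference.

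**Figure D4:**
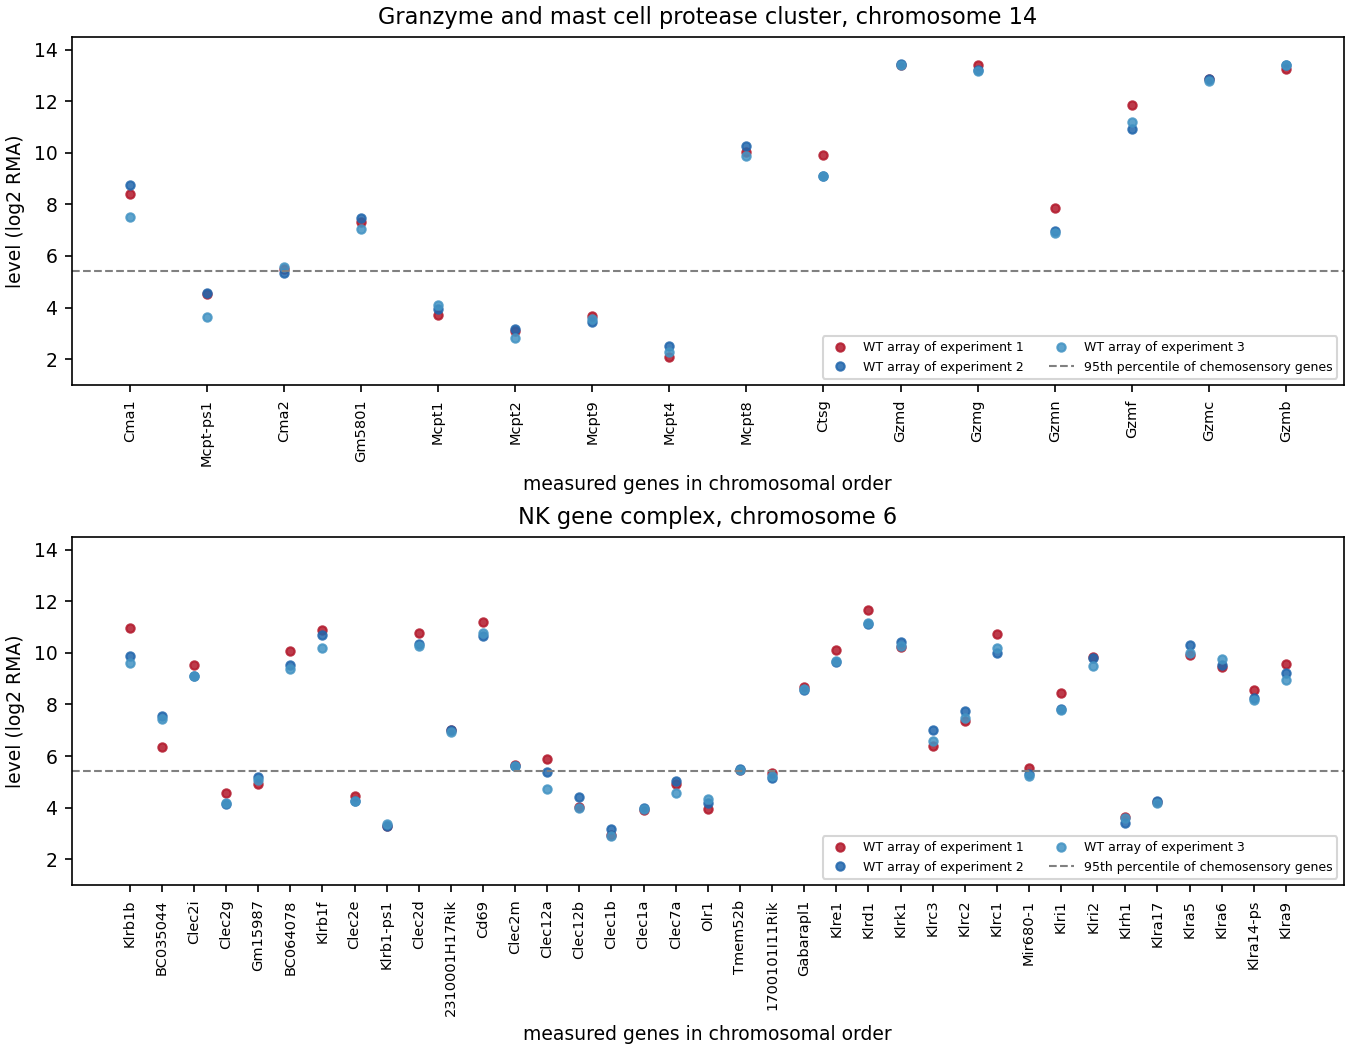
Level on each WT array (log2 RMA, vertical axis; 1 point per array) of the measured genes of the granzyme and mast cell protease cluster of chromosome 14 (top) and of the NK gene complex of chromosome 6 (bottom), in chromosomal order with equal spacing. The dashed line is the 95th percentile of the chemosensory genes; Mcpt1, Mcpt2, Mcpt9 and Mcpt4 lie below it and all 6 granzyme genes of the cluster above it.

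The NK gene complex on chromosome 6 was mixed in the same way. From Klrb1b to Klra1 it holds 67 RefSeq genes, 38 of them coding, and 30 coding genes were measured: 16 exceeded the stricter reference and 10 were not above the 95th percentile reference on every array. The bright members included lectin-like receptors of lymphocytes, such as Klrd1, the CD94 chain, at 11.66, 11.13 and 11.18, and Cd69, an early activation antigen, at 11.21, 10.65 and 10.76, as well as the autophagy gene Gabarapl1 at 8.61 ± 0.07. The low members included receptors of myeloid cells and platelets, with Clec7a, the beta-glucan receptor, at 4.84 ± 0.23 and Clec1b at 2.99 ± 0.14. Klrh1 and Klra17 were also low, at 3.55 and 4.22.

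All 25 measured activating receptors and adaptors were above the reference level and 16 were in the top 10%, with a median percentile of 93.3. Fcer1g read 13.15, 13.11 and 13.11, and Tyrobp, which encodes the adaptor DAP12, 11.04, 10.82 and 10.70. Slamf7 and Cd244a, receptors of the SLAM family, were at 11.93 ± 0.21 and 11.42 ± 0.10. Klrk1, the receptor NKG2D, was at 10.30 ± 0.12, and Hcst, its adaptor DAP10, at 7.53 ± 0.16. Fcgr3, the Fc receptor CD16 used in antibody-dependent killing, read 10.29, 9.57 and 9.43, so that the array of experiment 1 was the highest. The kinase genes Zap70 and Syk were at 9.71 ± 0.09 and 7.64 ± 0.33. Slamf6 was the lowest member, at 6.40 ± 0.20.

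The inhibitory receptor list, which also held the phosphatase genes Ptpn6 and Inpp5d, had a median percentile of 93.3. Of its 23 measured members 20 were above the reference level. Lilrb4a, an immunoglobulin-like inhibitory receptor, was the brightest, at 12.23 ± 0.08. Klrg1, a receptor for cadherins found on mature NK cells, read 11.85, 11.58 and 11.48. Havcr2, which encodes TIM-3, and Cd96 were at 11.05 ± 0.19 and 10.67 ± 0.16. Klrc1, the NKG2A chain that pairs with CD94, read 10.73, 10.00 and 10.20, and Klrb1b, an inhibitory NKR-P1 receptor for Clec2d, 10.96, 9.90 and 9.62. In both genes the array of experiment 1 was above the other 2.

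The Ly49 genes Klra5, Klra6 and Klra9 were at 10.07, 9.59 and 9.23, and Klra2 at 6.68. Other Ly49 genes shared probe sets and have no value of their own here; 1 such probe set, of Klra1, Klra4, Klra7 and others, read 7.91 ± 0.30. Among checkpoint receptors, Tigit and Lag3 were at 8.63 and 7.92. Pdcd1, which encodes PD-1, was at 5.32 ± 0.07, Cd200r1 at 5.66 ± 0.49 and Btla at 4.47 ± 0.13, and these 3 were not above the reference on every array.

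The measured IL-2 pathway genes were all above the stricter reference (20 of 20), with 11 in the top 10% and a median percentile of 92.9. Il2rb, the signalling beta chain, read 12.50, 12.64 and 12.64, and Il2ra, the high-affinity alpha chain that IL-2 itself induces through STAT5, 10.40, 10.44 and 10.87. Il2rg is not named here by a probe set of its own. Jak1 was at 11.56 ± 0.05, and a probe set shared by Jak3 and Insl3 at 9.42 ± 0.25. Stat5b and Stat5a were at 9.05 ± 0.23 and 7.58 ± 0.03.

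Genes known to follow STAT5 or to keep lymphocytes alive ranged from Bcl2 at 12.19 ± 0.07, through Pim1 at 11.44 ± 0.06, Pim2 at 10.40 ± 0.14, Mcl1 at 10.28 ± 0.18 and Myc at 9.93 ± 0.30 to Lta at 7.80 ± 0.20 and Bcl2l1, which encodes the survival protein BCL-XL, at 7.58 ± 0.13. Inhibitors of cytokine signalling, some of them also STAT5 targets, were read too, with Socs2 at 8.37, Cish at 8.12 ± 0.31, Socs1 at 7.78 and Socs3 at 7.05. Tyk2, the kinase that the other genotypes of the study alter, read 8.68, 8.56 and 8.63 in WT (percentile 86.4).

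Receptors for other cytokines were mostly present. Of 24 measured genes 21 were above the reference level, with a median percentile of 92.0. Ifngr1 was at 11.79 ± 0.17, Stat4, which relays IL-12 signals, at 11.11 ± 0.05, and Il12rb2 and Il12rb1 at 10.99 and 9.84. The IL-18 receptor genes Il18rap and Il18r1 were at 10.10 and 9.25, and the type I interferon receptor genes Ifnar1 and Ifnar2 at 10.40 and 9.70. Il7r was at 4.36 ± 0.10 and Il23r at 3.30 ± 0.14, both below the reference on all 3 arrays, and Ifngr2 at 5.51 ± 0.23 was not above it on each.

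Secreted factors were uneven: 12 of 22 measured cytokine and chemokine genes were above the reference level, a share near the 54.0% of all genes. Their median percentile was 61.9, against 55.8 over all genes. Tgfb1 read 10.79, 11.26 and 11.48, and Ccl5, a chemokine stored by cytotoxic lymphocytes, 10.78, 10.63 and 10.51. Tnf was at 9.79 ± 0.11, Ltb at 9.61 ± 0.34 and Xcl1, which draws cross-presenting dendritic cells, at 9.52 ± 0.45. Ifng, the hallmark cytokine of stimulated NK cells, was at 6.71 ± 0.03, with values of 6.69, 6.72 and 6.74 and percentile 69.2. Csf2 was at 6.91 ± 0.26. Il2, Il4, Il10, Il17a, Il21 and Il22 were below the reference on all arrays, between 1.66 and 4.45, and Il22 stood at percentile 0.0266, close to the lowest signal of the platform.

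All 29 measured lineage transcription factors were above the reference level and 12 were in the top 10%. Zeb2 had no probe set of its own and is not among the 29, and the probe sets it shared read 6.65 ± 0.04 and 3.97 ± 0.05. After Id2 came Bhlhe40 at 12.09 ± 0.15, Irf8 at 11.32 ± 0.17, Eomes, Ikzf1 at 10.40 ± 0.07, and Nfil3 and Runx3, both at 10.12. Prdm1, which encodes Blimp-1, was at 9.81 ± 0.24 and Gata3 at 7.86 ± 0.20. The lowest 4 were Id3 at 5.85, Tox2 at 5.99, Tox at 6.39 and Bach2 at 6.50. The median percentile of the list was 85.9, that of Tbx21.

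Among trafficking receptors only Ccr2 reached the top 10% of probe sets, at 10.83, 10.94 and 10.82. Of these receptors 11 of 18 were above the reference level, a share near the 54.0% of all genes. Their median percentile was 56.7, against 55.8 over all genes. Cxcr3, a receptor for interferon-induced chemokines, read 8.41, 8.75 and 8.79, and Cxcr6, found on tissue-resident lymphocytes, 7.70, 7.97 and 7.55. S1pr5, the sphingosine phosphate receptor that NK cells use to leave lymphoid organs, was at 5.81 ± 0.11, and S1pr1 at 5.72 ± 0.26. Both were under the stricter reference.

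Integrin and adhesion genes had a median percentile of 90.5, and 24 of 26 were above the reference level. Selplg, the selectin ligand PSGL-1, was at 12.79 ± 0.09, Ptprc, which encodes CD45, at 12.63 ± 0.09, and Itgb2 and Itgal, the chains of LFA-1, at 12.17 and 11.02. Itga2, which encodes the CD49b chain bound by DX5, was at 8.44 ± 0.16, and Itga1, the CD49a chain, at 10.11 ± 0.06. Ly6c2 read 11.74, 12.01 and 12.64. Itgam, the CD11b chain of mature NK cells, read 9.57, 8.41 and 8.16, with experiment 1 the highest. Itgae, the CD103 chain, was at 5.32 ± 0.18 and not above the reference on each array.

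The cultures carried the transcripts of growing cells. All 30 measured cell cycle and replication genes were above the stricter reference and 24 were in the top 10%. Pcna read 11.53, 11.74 and 11.84, Ccnd2, a cyclin induced by cytokines, 11.42, 11.50 and 11.63, and Mki67, the proliferation antigen Ki-67, 10.35, 11.68 and 11.76. The lowest members included E2f1 at 7.80, Foxm1 at 8.14 and Birc5 at 8.28. Inhibitors of the cycle were also present: Cdkn1a, which encodes p21, was at 11.52 ± 0.22, Cdkn1b, p27, at 9.41 ± 0.59, and Txnip, a repressor of glucose uptake, at 11.39 ± 0.61. The array of experiment 1 was the lowest for Mki67 and the highest for Cdkn1b and Txnip.

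Metabolic genes were high with few exceptions. Of 15 measured glycolysis genes 12 were in the top 10%, led by Gapdh at 13.58 ± 0.04, Pkm at 12.94 ± 0.07, Pgk1 at 12.85 ± 0.16 and Pfkp at 12.31 ± 0.14. Hk2 was at 9.23 ± 0.12 and Ldha at 8.42 ± 0.06, whereas Ldhb was at 5.22 ± 0.07 and below the reference. The 24 nuclear genes of the respiratory chain and ATP synthase were all above the reference, from Cox6a1 at 12.93 to Atp5o at 5.67. Of 16 nutrient transporter genes 11 were in the top 10%, among them Slc7a5 and Slc3a2, which form the transporter of large neutral amino acids, at 12.08 and 11.81, the glucose transporter gene Slc2a1 at 11.89 ± 0.17, the glutamine transporter gene Slc1a5 at 11.44 ± 0.22 and Tfrc, the transferrin receptor, at 10.06 ± 0.37.

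Cytoskeleton and translation genes had the highest medians of the 29 lists, at percentiles 98.3 and 98.7. Of 27 cytoskeleton genes 22 were in the top 10%, with Tubb5 at 13.16 ± 0.12, Rac2, a GTPase of blood cells, at 12.72 ± 0.06, Lcp1 at 12.69 ± 0.10 and Pfn1 at 12.69 ± 0.16. Of 15 translation genes 14 were in the top 10%, and Pabpc1 was the lowest, at 8.53 ± 0.08.

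MHC class I genes were bright, and interferon-stimulated genes ranged from the top 10% to below the reference. All 17 measured class I presentation genes were above the reference, with H2-K1 at 11.86 ± 0.14, Psmb8 at 10.91 ± 0.09 and Tap1 at 10.46 ± 0.28. Of 27 interferon-stimulated genes 23 were above the 95th percentile reference (54.0% of all genes) and 14 above the organ gene reference (37.5% of all genes). Their median percentile was 73.1, against 55.8 over all genes. In the top 10%, which held 12.0% of all genes, were 2, Bst2 at 10.20 ± 0.04 and Ddx58 at 9.28 ± 0.19. Ifi35, Parp14 and Zbp1 were at 8.82, 8.67 and 8.47, and Irf7 was at 7.67 ± 0.23. Several classic members were near the reference: Rsad2 at 5.96, Mx1 at 5.85, Isg15 at 5.68 ± 0.32 and Ifit2 at 5.66, with Ifit1, Oasl2, Oas2 and Mx2 not above it on every array.

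Markers of other cell types were then read, since enrichment on DX5 can carry other cells along. In these bulk RNA samples, transcripts of other cells and transcripts of the NK cells themselves cannot be told apart, whether the level is low or high. Over all genes, 54.0% were above the reference level. Of 15 measured T cell genes 13 were above the reference and 3 were in the top 10%, with a median percentile of 77.1 and summed log2 levels of 117.8, 114.6 and 119.3 on the 3 arrays. Cd3g read 11.80, 11.10 and 11.60, and Cd3e 11.28, 11.02 and 11.75, at percentiles 98.6 and 98.4, and both encode chains of the T cell receptor complex. These percentiles were not low, and the NK marker Ncr1 was at 98.5. Cd3d read 9.10, 8.53 and 9.15. Cd3g, Cd3e and Cd3d were all lowest in experiment 2.

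Cd28 was at 9.21 ± 0.11, Cd8a at 9.07 ± 0.30 and Cd8b1 at 8.36 ± 0.32. Cd5 was at 6.82, Cd6 at 6.62 and Themis at 6.51, whereas Cd4 at 5.38 ± 0.05 and Foxp3 at 4.53 ± 0.06 were below the reference on at least 1 array. The T cell receptor constant genes are not named here by probe sets of their own, so these sums cannot be assigned to cells, and the part of T cells in the levels above was not tested.

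B cell genes were low, with 6 of 16 above the reference and a median percentile of 38.5. Ighm, the heavy chain of immunoglobulin M, was an exception at 10.61, 10.83 and 10.61, although Cd79a, Ms4a1 and Pax5 were at 4.94, 3.73 and 4.91. H2-Ab1, a class II chain, read 10.04, 8.88 and 9.02, while H2-Aa and H2-Eb1 were at 5.79 and 6.38.

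Myeloid lists had medians at or below that of the organ genes. In the monocyte, macrophage and dendritic cell list 9 of 21 were above the reference, with Csf1r at 5.33, Lyz2 at 5.20 ± 0.33 and Adgre1 at 4.36, but Cd209a read 10.77, 10.38 and 10.28 and Cd68 8.86, 8.04 and 8.07. Of 14 neutrophil genes 3 were above the reference and none passed the stricter one; S100a8 and S100a9 were at 2.97 and 4.70. Basophil and mast cell genes had a median percentile of 25.6. Mcpt8, a basophil protease gene, stood at 10.06, Kit at 8.61 ± 0.44 and Cma1 at 8.23 ± 0.63, whereas Fcer1a, Ms4a2, Prss34, Hdc and Gata2 were between 2.99 and 4.58.

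The remaining lists were low apart from a few members. Among helper-like innate lymphoid cell genes, 5 of 14 were above the reference, namely Klrg1, Ncr1, Kit, Gata3 and Rora, all of which NK cells or activated lymphocytes may express. Among stromal and endothelial genes 8 of 18 were above it. Pecam1, which leukocytes also carry, was at 11.10 ± 0.13, and the epithelial adhesion genes Cdh1 and Epcam read 9.65, 8.15 and 8.61, and 9.09, 8.26 and 8.22. Col1a1, Dcn and Pdgfra were at 5.60, 3.99 and 4.36. Of 7 erythroid and platelet genes 3 were above the reference and none above the stricter one.

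The 3 cultures were alike over most genes. Across all 22180 genes, which are not independent replicates, the arrays of experiments 2 and 3 correlated at 0.997, and the array of experiment 1 correlated with them at 0.992 and 0.991. Between experiments 2 and 3, 15 genes differed by more than 1 log2 unit, against 181 between experiments 1 and 2 and 176 between experiments 1 and 3. Among the 11971 genes above the reference level the median SD was 0.117 and the 90th percentile of the SD 0.323. The genes of the top 10% with the smallest SD were Copg1 and Atp5g2, whose values were identical on the 3 arrays, Slc25a12, Dctn5 and Etfa. Such identity was found in 716 probe sets, and what made the values equal was not tested, so it is not read as steady expression.

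An SD over 0.5 was found in 266 of these genes (2.22%). In 257 of the 266 the array farthest from the other 2 was that of experiment 1, which was higher in 112 and lower in 145; without that array, 13 genes had an SD over 0.5, and without the array of experiment 2 or 3 there were 600 and 560. Of the 15 genes with the largest spread, 8 were lower and 7 higher in experiment 1. Lower in experiment 1 were the replication-dependent histone genes H2bc14 (7.17, 9.16 and 9.35), H4c1 (5.61, 7.51 and 7.56), H4c17 and H4c8, the mitotic genes Cenpe (7.82, 9.60 and 9.62) and Cenpf, the ribosome assembly gene Mdn1, and Ccl3, a chemokine gene (7.96, 9.73 and 9.87).

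Higher in experiment 1 were Pygl, the liver form of glycogen phosphorylase (8.84, 7.09 and 7.10), Klhl24 (9.85, 8.10 and 8.05), Tcp11l2, Selenbp1, Adgrg1, the receptor GPR56, Ctla4, an inhibitory receptor (8.97, 7.48 and 7.47), and Cxcr4, the receptor for the chemokine that retains cells in bone marrow (8.85, 7.21 and 7.58). For each of the 15 the value of experiment 1 lay outside the range of the other 2. These genes were picked by this spread, so these differences are a description.

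Whether the same difference held in cultures that had not picked the genes was tested on the 6 arrays of the mutant genotypes, as experiment 1 minus the mean of experiments 2 and 3 with genotype as a term (limma, Benjamini-Hochberg adjustment over 12578 genes). The labels do not say what differed between experiments, and cultures of 1 experiment share it, as all 9 arrays share their normalisation. The fit sets 1 experiment against 2 others, so its p-values and SEs measure spread between arrays and not between experiments. The mutant cultures belong to the same experiments as the WT cultures, so they do not repeat the difference independently. In that fit 2717 genes passed (21.6%), 1118 higher (8.89%) and 1599 lower (12.7%) in experiment 1. Of the 266 genes 264 had the same direction as in WT, 242 passed in that direction and 0 in the other. The median size of the difference over the 266 was 1.02 log2 units in WT and 0.86 in the mutants. Without the Tyk2K923E array of experiment 1, which leaves 1 array of that experiment in the fit, 0 genes passed in limma (2925 at an unadjusted p under 0.05, lowest adjusted p 0.0692), although 261 of the 266 kept their direction. The count was 1741 without the Tyk2-/- array of experiment 1, 1424 and 1371 without the Tyk2K923E array of experiment 2 or 3, and 1268 without the Tyk2-/- array of experiment 3.

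All 15 named genes passed, with limma adjusted p-values from 0.00295 to 0.0287, and all 15 kept their direction without the Tyk2K923E array of experiment 1, 14 of them at an unadjusted p under 0.05. H2bc14 fell by 1.87 on the log2 scale (SE 0.10), from values of 9.18, 9.07, 9.17 and 9.33 in experiments 2 and 3 to 7.11 and 7.53 in experiment 1. Pygl was higher by 1.62 (SE 0.09) and Ctla4 by 1.42 (SE 0.07). Ccl3 fell by 1.03 (SE 0.14) in the mutants, and its WT difference was -1.84. Whether WT and mutants differed in these sizes was not tested.

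**Figure D5:**
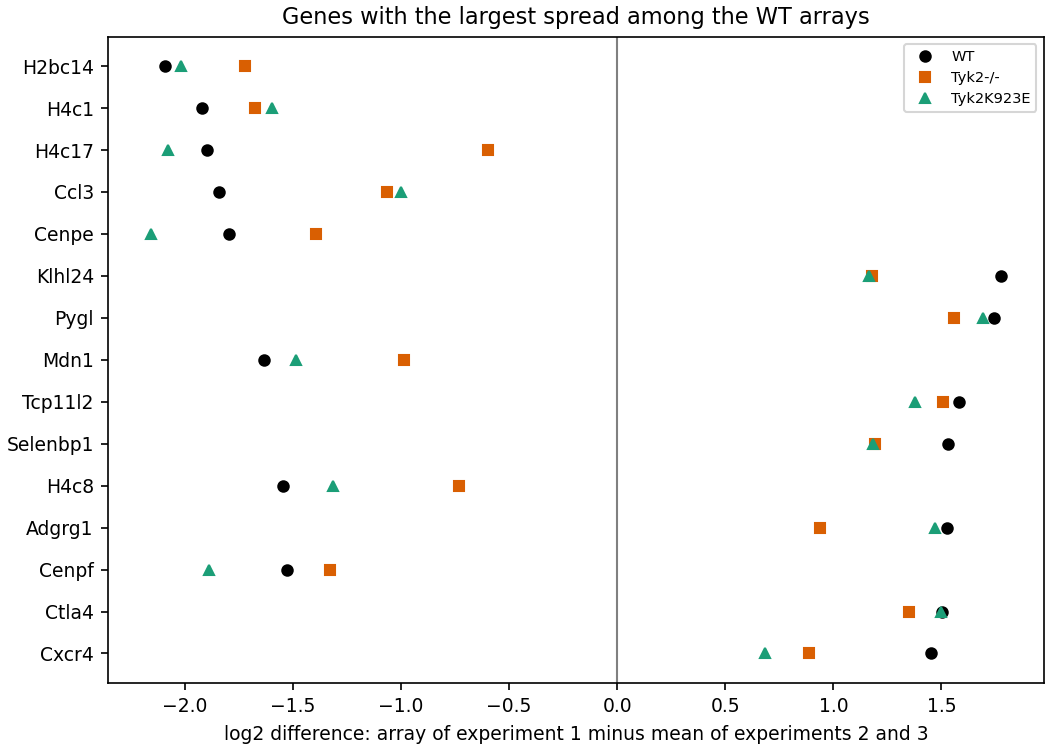
Log2 difference of the array of experiment 1 from the mean of experiments 2 and 3 (horizontal axis) for the 15 genes with the largest SD over the WT arrays, in WT (circles, used to pick the genes), Tyk2-/- (squares) and Tyk2K923E (triangles), 1 value per genotype. All symbols of a gene lie on the same side of 0.

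Of the 29 lists, the cell cycle list had the largest share of members called between experiments. In WT 29 of 30 cell cycle genes were lower in experiment 1, with a median difference of -0.55 log2 units, the exception being Ccnd3. In the mutant arrays 22 of 30 passed as lower (background 12.7%) and 0 as higher, with a median of -0.73 against -0.0045 over all genes tested. Among them Mki67 fell by 1.27 (SE 0.22). Bub1, a spindle checkpoint kinase, fell by 1.16 (SE 0.10). Mcm5, a subunit of the replicative helicase, fell by 1.03 (SE 0.11), and Rrm2, the small subunit of ribonucleotide reductase, fell by 1.06 (SE 0.21). Of 28 histone genes tested 11 were lower and 1 was higher. Of 11 genes of cycle inhibition and quiescence 6 were higher (background 8.89%) and 0 lower. The 6 included Btg2, higher by 0.94 (SE 0.07), Txnip by 0.93 (SE 0.08) and Cdkn1b by 0.79 (SE 0.06). None of the 22 cell cycle genes passed without the Tyk2K923E array of experiment 1, where 29 of 30 were again lower. The count was 14 without the Tyk2K923E array of experiment 2, and 11 without either the Tyk2K923E or the Tyk2-/- array of experiment 3.

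Some receptor genes were higher in experiment 1. Of 21 members of the inhibitory receptor list tested 7 were higher in experiment 1 (background 8.89%) and 0 lower. Among the 7 were Klrb1b, higher by 1.03 (SE 0.19), and Klrd1 by 0.56 (SE 0.08). Of 25 activating receptors and adaptors 7 were higher, such as Sh2d1b1, the adaptor EAT-2, by 0.83 (SE 0.12), Fcgr3 by 0.87 (SE 0.10) and Tyrobp by 0.57 (SE 0.10), and Ncr1 fell by 0.50 (SE 0.12). Of 24 integrin and adhesion genes 2 were higher, Itgam by 1.46 (SE 0.18) and Itgb3 by 1.09 (SE 0.09), and 2 were lower: Cd44 fell by 0.35 (SE 0.08) and Cd48 fell by 0.24 (SE 0.06). The share of higher members in that list was near the background. Of 10 stromal and endothelial genes 2 were higher, Cdh1 by 1.28 (SE 0.17) and Epcam by 0.63 (SE 0.12), and 0 lower. Of 28 granule genes 3 were higher, Gzmk, Gzmn and Rab27a, again a share near the background, and 0 lower. Nutrient transporters split, with 6 of 16 lower (background 12.7%), among them Tfrc at -0.59 (SE 0.07). The glucose transporter genes Slc2a1 and Slc2a3 were higher by 0.28 and 0.60. Of 13 T cell genes tested 0 passed in limma (5 at an unadjusted p under 0.05).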

How the data were processed

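The values were log2 signals that the authors deposited for 41345 probe sets of an Affymetrix mouse gene array; per the submitters' processing notes they were normalised by RMA in Partek 6.6, and neither the version of RMA nor the genome build is given in the sources used here. Per the labels' protocols, total RNA was isolated with TRIFAST, partly purified on RNeasy columns and labelled with WT PLUS chemistry. RMA was run before deposit and no background or detection value is used here. Of the probe sets, 23521 carried 1 gene symbol in the platform annotation, 1814 carried several and 16010 were not listed in it, and 716 read the same on all 3 WT arrays. The brightest probe set represented a gene; 1082 genes had several, which in 703 differed by more than 1 log2 unit. Of 22180 genes 21994 matched RefSeq (GRCm38.p6), used for biotypes, gene order and promoters.

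Levels are means over 3 arrays with SDs, and no test was made on them. The number of arrays limits the precision. The 29 gene lists held 598 distinct genes, 531 of them measured. The arrays, the lists and the rule for named genes were chosen with earlier results of these data known. The rule named the 6 markers, the 25 brightest genes outside 4 classes, up to 6 highest and 4 lowest members of each list (all of a list of at most 20), the granzyme and lectin-like receptor families, and the 15 most and 5 least variable genes; other list members named here were chosen after their values were seen. Experiments were compared with limma 3.58.1 in R 4.3.3 (lmFit and eBayes, prior degrees of freedom 3.17, threshold 0.05, two-sided) on genes that reached the median of the array on at least 3 arrays. The labels call the experiments biological replicates, with pooled mice in each. The procedure was run on simulated data with noise drawn independently for each array. It recovered 82.1% of genes changed by 0.5 log2 units, with 15 false calls among 12578 genes. That noise held nothing shared within an experiment, so the simulation cannot show the rate of false calls between experiments. Tables and figures used Python 3.11.15, pandas 2.3.3, numpy 2.4.6 and matplotlib 3.10.9. The alternatives were other reference levels, probe set means, quantile normalisation, other percentile bases, other filters and leaving out each array; the organ gene reference was added after the data were seen.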

Additional observations from a re-analysis of the deposited data

How the results depend on the processing

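No paired analysis was possible because WT levels come from no test, and the only test compares the experiments, which are the replicate numbers themselves. The count of genes above the reference level (8328 to 12584), the count in the top 10% (2281 to 2658) and the median percentile of the NK markers (98.0 to 98.4) stayed within 1.5 times or 1 SD of the main value under every alternative run. The top 10% was set anew in each alternative, so its count could change little and is no check of the levels. The count of 266 genes with an SD over 0.5 was 13 to 600 when 1 WT array was left out, which leaves 2 arrays for an SD. The 2717 genes that differed between experiments in the mutant arrays became 1506 with no filter on level, where more genes were tested, 4624 with the WT arrays added, and 0 to 2463 when 1 mutant array was left out. Over the 29 lists, the median percentile shifted by -4.94 to 0 with the mean over a gene's probe sets and by -6.32 to 0.28 with percentiles over probe sets of 1 symbol. Quantile normalisation moved it by -0.04 to 0.04, on arrays whose medians were already 5.44, 5.45 and 5.44. For list medians and single named genes, 355 values moved by more than 1 SD, most of them under that second percentile base, and 26 calls were lost, 15 of them without the Tyk2K923E array of experiment 1. Signal over background limits genes near the reference level.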

Other observations

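Some genes that code for no protein were bright in the WT cultures, and those named in the rest of this section were chosen after their values were seen. Median percentiles were 25.5 for microRNA genes, 33.7 for long noncoding RNA genes and 86.3 for small nucleolar RNA genes, against 55.8 over all genes. Rn7sk, the small nuclear RNA that holds the elongation factor P-TEFb inactive, read 13.95, 13.88 and 13.87, and was exceeded only by the mitochondrial gene ND4 among all genes ranked. Snora33, a small nucleolar RNA gene, was at 13.08 ± 0.08, and Rpph1, the RNA of ribonuclease P, at 12.10 ± 0.27. Of 478 microRNA genes 8 were in the top 10% (1.67%, against 12.0% of all genes), led by Mir5099 at 12.80 ± 0.30 and Mir449b at 12.40 ± 0.07. Mir142, a microRNA gene of blood cells, was at 8.85 ± 0.10. Such probe sets read total RNA, so a signal does not separate a mature microRNA from its precursor or host transcript.

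Long noncoding RNAs with a high level were Gm12718 at 13.39 ± 0.11, AW112010, an RNA of activated lymphocytes, at 11.67 ± 0.27, and Malat1, a nuclear RNA of most cell types, at 11.37 ± 0.21. In the comparison of experiments in the mutant arrays, 41 of 219 small RNA genes tested were higher in experiment 1 and 10 were lower, where all genes tested gave 8.89% and 12.7%.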
